A study of Sus scrofa with 20 samples.

Results

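Heat shock genes and immediate early genes are the ones a cell transcribes within minutes to hours of a stress or a growth signal. HSF1, the heat shock transcription factor, drives chaperones that bind unfolded proteins. Immediate early genes are switched on without new protein synthesis, mostly by MAP kinase signalling through serum response factor, and they encode transcription factors and regulators of cell survival. In the uterus they are known to respond to ovarian steroids, and in any tissue they also respond to heat, handling and lack of oxygen.

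The 10 genes described here are 4 heat shock genes (HSPA6, DNAJB1, HSPH1 and HSPB1) and 6 immediate early or stress-response genes (FOS, JUNB, EGR1, EGR2, ATF3 and IER3). They were taken by symbol from the 30345 gene rows of the estimated count table. Each symbol had 1 row, and all 10 passed the filter on low counts that kept 17745 genes.

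Uterine messenger RNA was sequenced from 20 sows in 4 groups of 5, collected 6 days after the onset of estrus. FR1 sows received the sperm-rich part of the ejaculate. FR2 sows received the rich and intermediate parts, FR3 sows received the rich, intermediate and poor parts, and CONTROL sows were not inseminated. All sows were Large White by Landrace crosses with the genotype label WT, their age is not stated, and the semen came from 3 Pietrain boars. Sows of the semen groups were inseminated more than once as a rule, and the labels do not say which uteri held embryos, so semen and early pregnancy cannot be told apart. The tracts were carried warm to the laboratory, washed and dissected before the tissue was fixed, and no time from slaughter to fixation is given for any one sow. Libraries are named by group and column number, such as CONTROL_3, because the table does not tell which sow a column holds.

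Library totals lay between 32978955 and 62939044 counts, and levels are given as CPM, counts relative to the library total, which was scaled for library composition by the TMM method. The listed markers of epithelium, fibroblasts and smooth muscle, the main tissues of the uterus, were each detected in all 20 libraries. CONTROL_1 had the lowest summed smooth muscle level of the 20 libraries, at 1021 CPM, and the lowest summed fibroblast level, at 1389 CPM. CONTROL_3 had 77.3 CPM of the neutrophil receptor gene CSF3R, against 0.395 to 3.51 CPM in the inseminated libraries. CONTROL_2 had 32.5 CPM of the neutrophil collagenase gene MMP8, against 0 to 14.6 CPM in the inseminated libraries. CXCR2, another listed neutrophil gene, had at most 0.294 CPM in the controls, against 0 to 2.48 CPM in the inseminated libraries. In bulk tissue, fewer cells of a type and less RNA per cell cannot be told apart.

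Of the 10 genes, 5 were lower in the 15 inseminated uteri than in the 5 control uteri: the chaperone genes HSPA6 and DNAJB1, and JUNB, ATF3 and IER3. None was higher. Among all genes tested in this comparison, 11.1% were called, 2.87% higher and 8.2% lower (edgeR quasi-likelihood test, Benjamini-Hochberg adjusted p below 0.05). The median log2 fold change of the 10 genes was -1.43, against -0.05 over all genes tested. The size of these differences was carried by 3 control uteri, CONTROL_2, CONTROL_3 and CONTROL_4, and the other 2 controls lay among the inseminated uteri or below them for most of the 10 genes.

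**Figure D1:**
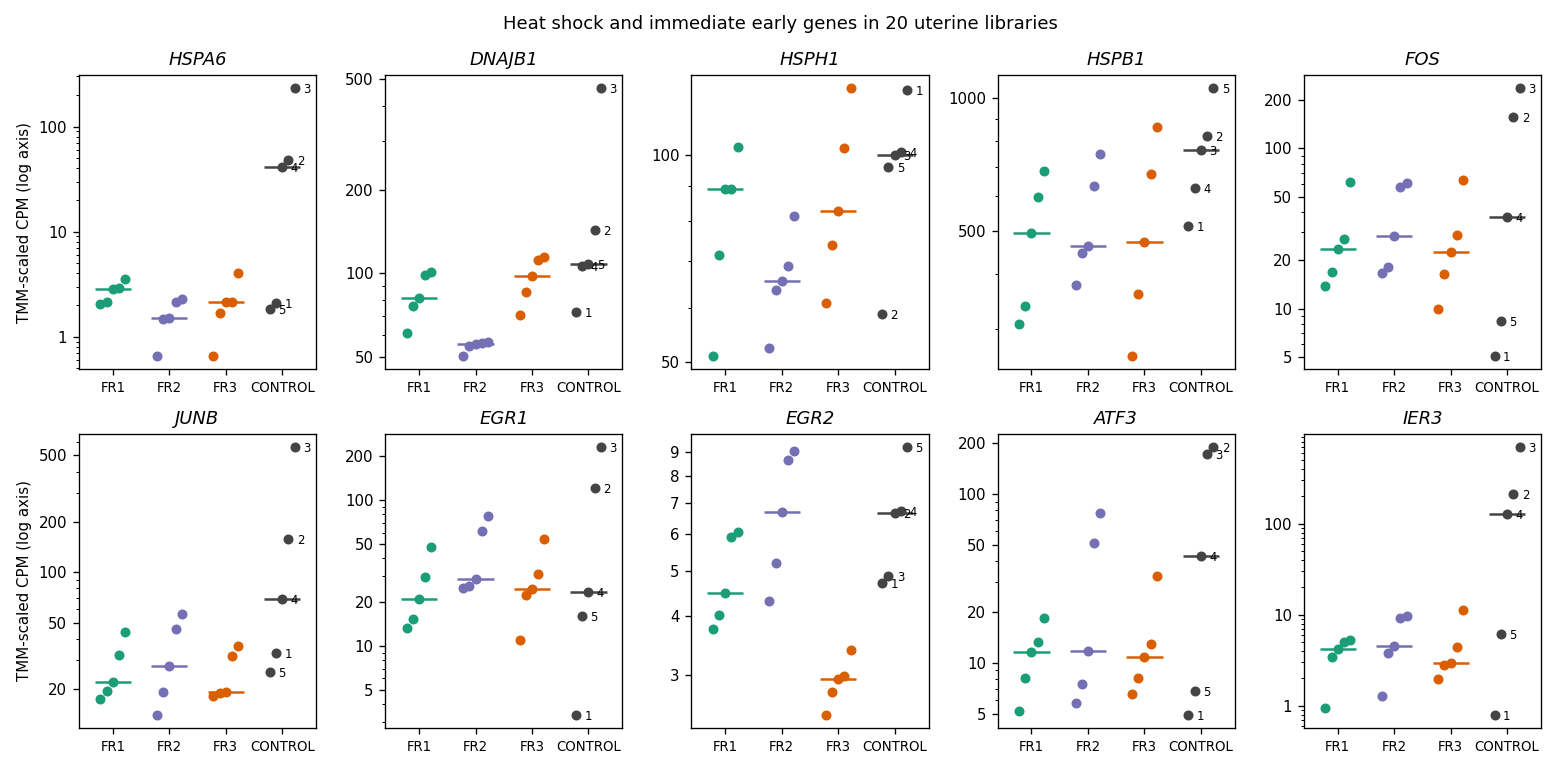
TMM-scaled CPM (log axis, a separate scale per gene) of the 10 genes in each library, by group, with bars at the group medians and control libraries marked by number. CONTROL_2, CONTROL_3 and CONTROL_4 lie above every inseminated library for HSPA6, JUNB and IER3, FR2 is a tight low group for DNAJB1, and FR3 is the lowest group for EGR2.

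HSPA6 encodes a strictly inducible HSP70 chaperone that is nearly silent in unstressed cells. Its level ranged from 0.656 to 4.00 CPM in the 15 inseminated libraries, with a median of 2.15 CPM. CONTROL_1 to CONTROL_5 had 2.09, 47.7, 232, 40.9 and 1.83 CPM. CONTROL_2, CONTROL_3 and CONTROL_4 stood far above every inseminated library, and the other 2 lay inside the inseminated range. HSPA6 fell by 4.94 on the log2 scale (SE 0.62, adjusted p = 0.000112, edgeR), and by 3.46 without CONTROL_3. By limma-voom HSPA6 did not pass, over all inseminated libraries (-3.14, adjusted p = 0.0586) or in any semen group.

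DNAJB1 encodes the J-domain partner that loads clients onto HSP70 and is a standard HSF1 target. FR1 libraries 1 to 5 had 81.4, 76.1, 98.2, 60.7 and 101 CPM. FR2 libraries had 50.3, 56.2, 54.8, 55.6 and 56.4 CPM, and FR3 libraries had 97.5, 70.4, 111, 85.2 and 114 CPM. CONTROL libraries had 72.7, 143, 464, 106 and 108 CPM. Only CONTROL_2 and CONTROL_3 stood above every inseminated library, and the 5 FR2 libraries lay below all 15 others. Over all inseminated libraries the log2 fold change was -1.24 ± 0.27 (adjusted p = 0.00631, edgeR). Without CONTROL_3 it was -0.51 ± 0.15, with an adjusted p of 0.0603.

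HSPH1, an HSP110 chaperone that acts as a nucleotide exchange factor for HSP70, did not pass the test. It ranged from 51.0 to 125 CPM in the inseminated libraries, with a median of 74.0 CPM. CONTROL_1 to CONTROL_5 had 124, 58.7, 99.96, 101 and 95.8 CPM. The order of the controls differed from that of HSPA6: CONTROL_1 was the highest control and CONTROL_2 was among the 3 lowest of all 20 libraries. HSPH1 had a log2 fold change of -0.30 ± 0.18 (adjusted p = 0.314, edgeR).

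HSPB1 encodes the small heat shock protein HSP27, which holds unfolding proteins and binds actin, and smooth muscle and epithelium express it without stress. Its level ranged from 260.4 to 862 CPM in the inseminated libraries, with a median of 473 CPM, and the controls had 513, 820, 763, 625 and 1055 CPM. One control, CONTROL_5, exceeded every inseminated library, and the rest overlapped with them. For HSPB1 the log2 fold change was -0.56 ± 0.25, which did not pass the test (adjusted p = 0.157, edgeR).

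Among the immediate early genes, JUNB, a JUN family partner of FOS in the AP-1 factor, ranged from 14.0 to 56.6 CPM in the inseminated libraries, with a median of 22.0 CPM. CONTROL_1 to CONTROL_5 had 32.7, 159, 562, 69.5 and 25.4 CPM. As for HSPA6, 3 controls exceeded every inseminated library and the other 2 lay within the inseminated range. JUNB fell by 2.60 on the log2 scale (SE 0.47, adjusted p = 0.00149, edgeR). Without CONTROL_3 its log2 fold change was -1.34 ± 0.39 (adjusted p = 0.0489).

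IER3 encodes a short-lived survival regulator that NF-kappaB and growth signals induce. It ranged from 0.936 to 11.3 CPM in the inseminated libraries, with a median of 4.22 CPM. The controls had 0.796, 213, 697, 129 and 6.16 CPM. CONTROL_2, CONTROL_3 and CONTROL_4 stood far above every inseminated library, whereas CONTROL_1 was the lowest of all 20. IER3 fell by 5.48 on the log2 scale (SE 0.76, adjusted p = 0.000215, edgeR), and its log2 fold change was -4.21 ± 0.71 without CONTROL_3. It did not pass by limma-voom (-3.29, adjusted p = 0.116).

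ATF3 encodes a stress-induced bZIP repressor that lies downstream of ATF4 and of MAP kinases. It ranged from 5.18 to 76.8 CPM in the inseminated libraries, with a median of 11.6 CPM, and the controls had 4.92, 189, 172, 43.0 and 6.81 CPM. CONTROL_2 and CONTROL_3 were above every inseminated library, CONTROL_4 was inside their range and CONTROL_1 was below them all. ATF3 had a log2 fold change of -2.29 ± 0.64 (adjusted p = 0.0257, edgeR). The call was lost without CONTROL_2, at -1.73 ± 0.68 (adjusted p = 0.106), and without CONTROL_3, at -1.82 ± 0.69 (adjusted p = 0.136). It was also lost by limma-voom, at -1.32 (adjusted p = 0.304).

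FOS, which pairs with JUN proteins in AP-1, did not pass the test. Its level ranged from 9.96 to 63.3 CPM in the inseminated libraries, with a median of 23.5 CPM, and the controls had 5.07, 158, 238, 37.2 and 8.41 CPM. The controls thus lay on both sides of the inseminated range, with 2 above it and 2 below it. Its log2 fold change was -1.53 ± 0.59 (adjusted p = 0.105, edgeR). It passed without CONTROL_1, at -1.84 ± 0.54 (adjusted p = 0.0325), and without CONTROL_5, at -1.81 ± 0.58 (adjusted p = 0.0425), while without CONTROL_3 it was -0.74 ± 0.63.

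EGR1, a zinc finger factor induced by serum response factor, ranged from 11.0 to 78.4 CPM in the inseminated libraries, with a median of 25.7 CPM. The controls had 3.37, 122, 232, 23.4 and 16.0 CPM, again with 2 controls above the inseminated range and 1 below it. The log2 fold change was -1.32 ± 0.57 (adjusted p = 0.143, edgeR). Without CONTROL_1 it passed, at -1.63 ± 0.49 (adjusted p = 0.0349), and without CONTROL_3 it was -0.36 ± 0.58.

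EGR2, the Krox20 factor of the same family, showed no such spread. Over all inseminated libraries it ranged from 2.46 to 9.04 CPM, and the controls had 4.71, 6.67, 4.88, 6.73 and 9.24 CPM. CONTROL_3, the highest library for HSPA6, DNAJB1, FOS, JUNB, EGR1 and IER3, was the second lowest control for EGR2. For EGR2 the log2 fold change was -0.49 ± 0.20 (adjusted p = 0.122, edgeR).

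In counts, at least 2 controls lay above every inseminated library for 7 of the 10 genes, all but HSPH1, HSPB1 and EGR2, and 21.1% of all tested genes did so. At least 3 controls did so for 3 genes (HSPA6, JUNB and IER3), against 7.68% of all tested genes. CONTROL_1 was the lowest of the 20 libraries for FOS, EGR1, ATF3 and IER3. An exact rank-sum test over the 15504 ways to choose 5 libraries, which disregards how far a library stands out, called none of the 10 genes and 1.88% of all genes. Its lowest p among the 10 genes was 0.0193, for JUNB, with an adjusted p of 0.177, and 3 of the 10 genes had a p below 0.05 before adjustment. The 1.88% is the share after adjustment. The share of all genes before adjustment was not computed, so the count of 3 has no background beside it.

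**Figure D2:**
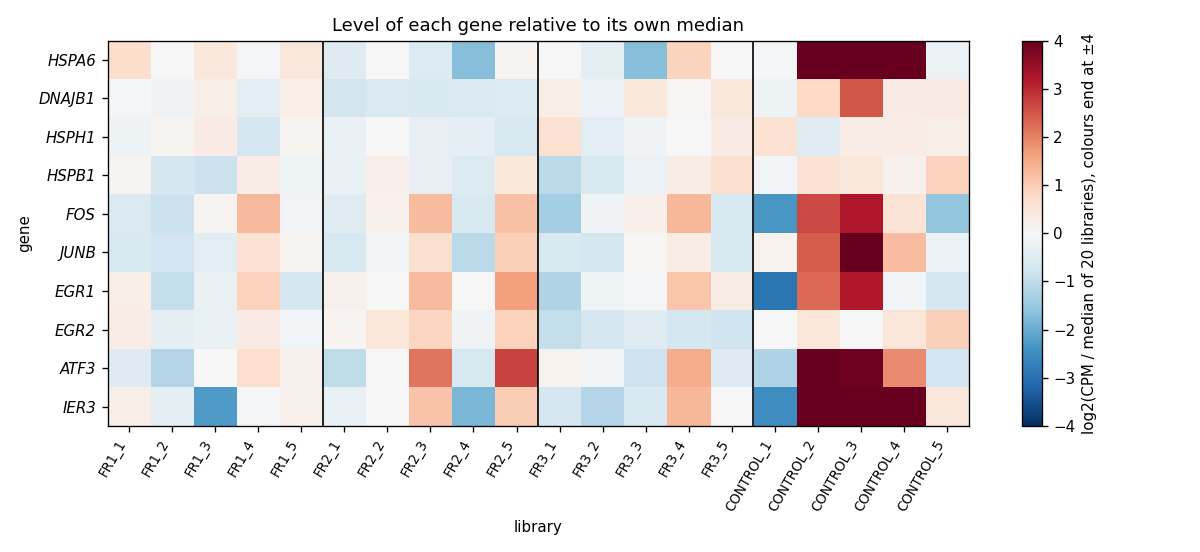
Level of each gene in each library as log2(CPM / median of the 20 libraries), with colours ending at 4 in either direction and lines between FR1, FR2, FR3 and CONTROL. CONTROL_2, CONTROL_3 and CONTROL_4 are dark red for HSPA6 and IER3, and CONTROL_1 is blue for FOS, EGR1 and IER3.

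CONTROL_2, CONTROL_3 and CONTROL_4 were the 3 highest of the 20 libraries for HSPA6, JUNB and IER3. Smaller falls without them therefore follow from the choice of libraries, and the values below only describe how much rested on them. With CONTROL_2 and CONTROL_3 both left out, 2 of the 10 genes remained called. Calls over all genes then went from 1965 to 1171. HSPA6 had a log2 fold change of -2.86 ± 0.56 (adjusted p = 0.00698, edgeR) and IER3 one of -3.29 ± 0.74 (adjusted p = 0.0144). JUNB then stood at -0.61 ± 0.38 and ATF3 at -0.11 ± 0.73, while FOS was 0.86 ± 0.65 and EGR1 1.15 ± 0.58, none of them called. With CONTROL_4 left out as well, none of the 10 genes was called, and 523 of all genes were. HSPA6 was then 0.13 ± 0.51, IER3 0.45 ± 0.81, FOS 2.23 ± 0.76 (adjusted p = 0.121) and EGR1 1.74 ± 0.71 (adjusted p = 0.193), from 2 control libraries.

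**Figure D3:**
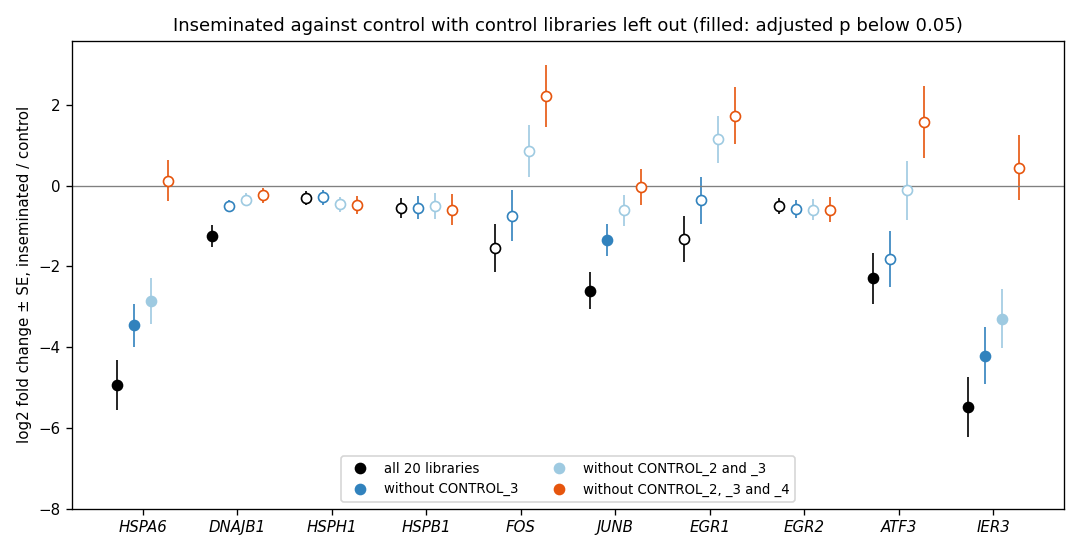
Log2 fold change (inseminated over control) with its SE for each gene, with all 20 libraries and with CONTROL_3, then CONTROL_2 and CONTROL_3, then CONTROL_2, CONTROL_3 and CONTROL_4 left out. Filled points passed an adjusted p below 0.05, and no point is filled in the last setting, where HSPA6, IER3, FOS, EGR1 and ATF3 lie above 0.

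The cell type markers moved with the same control libraries in part. The summed level of 6 neutrophil markers ranged from 0.505 to 16.3 CPM in the inseminated libraries and was 1.34, 35.2, 80.9, 16.7 and 4.33 CPM in CONTROL_1 to CONTROL_5. The neutrophil-defining genes S100A8 and FCAR were at or near 0, with S100A8 at 0 in 9 libraries and FCAR at 0 in 18, so the sum rested on CSF3R in CONTROL_3 and on MMP8 in CONTROL_2 and CONTROL_4. CXCR2 went the other way, at 0 to 0.294 CPM in the controls and a median of 0.384 CPM in the inseminated libraries. Of the 6 markers, 4 were tested, and 2 of these were called lower in the inseminated libraries.

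The 6 smooth muscle markers summed to between 3685 and 27735 CPM in the inseminated libraries, and to 1021, 31488, 28482, 19489 and 14242 CPM in CONTROL_1 to CONTROL_5. CONTROL_2 and CONTROL_3 were thus the highest of the 20 libraries and CONTROL_1 the lowest, and none of the 6 was called. The 6 fibroblast markers summed to between 3748 and 14338 CPM in the inseminated libraries, and to 1389, 6997, 1406, 5408 and 6268 CPM in the controls. Of these, 2 were called higher in the inseminated libraries.

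The summed level of 6 macrophage markers ranged from 35.0 to 124 CPM in the inseminated libraries and from 40.8 to 184 CPM in the controls, with the highest value in CONTROL_4. The 10 epithelial markers summed to between 1511 and 6017 CPM in the inseminated libraries, and to between 3505 and 7259 CPM in the controls. Of these 10 markers, 5 were called lower after insemination. The part of these cell types in the differences of the 10 genes was not tested.

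Each semen group was then set against the controls on its own. All 3 comparisons share the 5 control libraries, so they are not independent of one another. In FR1, 3 of the 10 genes were called lower and none higher, against 2.6% of all tested genes called, 0.609% higher and 1.99% lower. In FR2, 4 were called lower and none higher, against 5.55% of all genes, 1.57% higher and 3.98% lower. In FR3, 4 were called lower and none higher, against 4.27% of all genes, 1.43% higher and 2.85% lower. The balance over all genes depended on the tool, as higher calls made up 64.9% by limma-voom and 23.4% by edgeR in FR1, 55.2% and 28.2% in FR2, and 56.6% and 33.4% in FR3. A test for any difference among the 4 groups called 5 of the 10 genes, HSPA6, DNAJB1, JUNB, EGR2 and IER3, and 4.07% of all genes. The median log2 fold change of the 10 genes was -1.64 in FR1, -1.37 in FR2 and -1.56 in FR3, against -0.03, -0.04 and -0.05 over all genes.

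HSPA6 had log2 fold changes against CONTROL of -4.59 ± 0.95 in FR1, -5.32 ± 0.99 in FR2 and -4.93 ± 0.97 in FR3 (edgeR adjusted p = 0.0171, 0.00744 and 0.0162). IER3 had -5.78 ± 1.21 in FR1, -5.20 ± 1.17 in FR2 and -5.47 ± 1.19 in FR3 (adjusted p = 0.0171, 0.0164 and 0.0194). JUNB had -2.65 ± 0.67 in FR1, -2.38 ± 0.66 in FR2 and -2.77 ± 0.67 in FR3 (adjusted p = 0.0398, 0.0428 and 0.0285). These 3 genes were thus lower in each semen group, and in each case with wide errors. DNAJB1 also passed in FR2, and EGR2 in FR3. ATF3 had -2.88 ± 0.91 in FR1, -1.44 ± 0.87 in FR2 and -2.55 ± 0.90 in FR3, none called (lowest adjusted p = 0.0901, edgeR).

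Leaving out single libraries ended several of these calls. In FR1, HSPA6 and IER3 were each lost without CONTROL_3, FR1_1, FR1_2, FR1_4 or FR1_5, where the adjusted p was at most 0.0637. In FR3, both were lost without FR3_1 or FR3_2, and IER3 also without CONTROL_3, with an adjusted p of at most 0.0527 for HSPA6 and 0.0636 for IER3. In FR2, IER3 was lost without CONTROL_3 or FR2_1 (adjusted p at most 0.0553), and HSPA6 was never lost. The JUNB call was lost in 12 of 20 such fits in FR1, namely without CONTROL_3, any FR1 library, FR2_1, FR2_2, FR3_1, FR3_2, FR3_3 or FR3_5. In FR2 it was lost in 14, without CONTROL_3, any FR2 library, FR1_1, FR1_2, FR1_3, FR1_5, FR3_1, FR3_2, FR3_3 or FR3_5. In FR3 it was lost in 5, without CONTROL_3, FR3_1, FR3_2, FR3_3 or FR3_5. The largest adjusted p in each came without CONTROL_3, at 0.195 in FR1, 0.244 in FR2 and 0.113 in FR3. The JUNB log2 fold change was then -1.38 in FR1, -1.12 in FR2 and -1.53 in FR3.

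**Figure D4:**
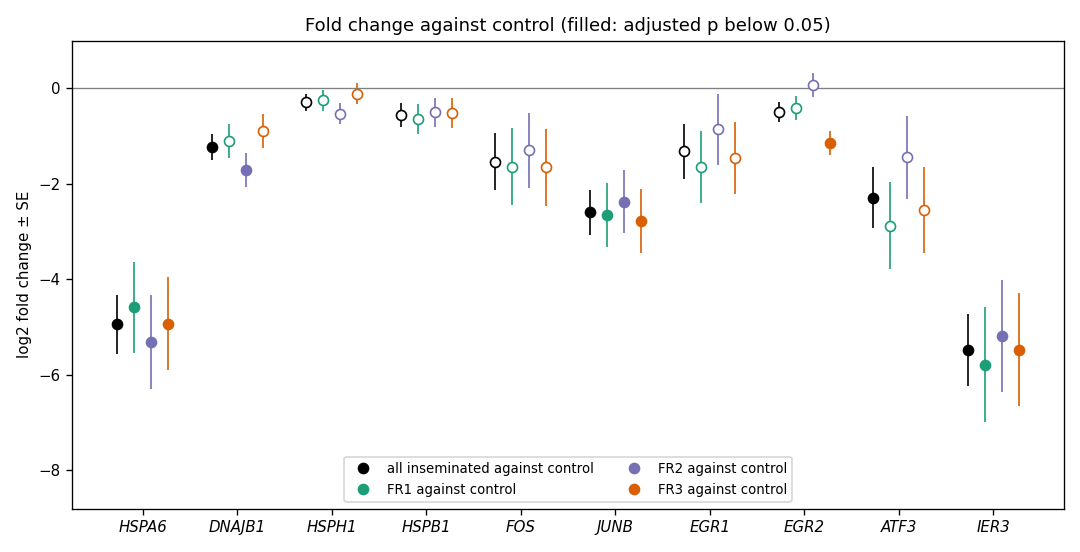
Log2 fold change against CONTROL with its SE for the 10 genes, over all inseminated libraries and in FR1, FR2 and FR3. Filled points passed an adjusted p below 0.05; HSPA6, JUNB and IER3 are filled in all 4 comparisons, DNAJB1 in FR2 and over all inseminated libraries, ATF3 over all inseminated libraries and EGR2 in FR3.

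Between the semen groups, which ask what the intermediate and poor parts of the ejaculate add, none of the 10 genes was called in FR2 against FR1, FR3 against FR1 or FR3 against FR2. Over all genes, 0% were called in FR2 against FR1 and in FR3 against FR1, and 0.00564% in FR3 against FR2 (edgeR). At an unadjusted p below 0.05, EGR2 passed in FR3 against FR1, and EGR2 and DNAJB1 passed in FR3 against FR2. In that order, their adjusted p were 0.586, 0.488 and 0.667 (edgeR). The share of all genes at this unadjusted threshold was not computed. DESeq2 called 1 of the 10 genes, EGR2, in FR3 against FR2 (adjusted p = 0.0104). For each of these 2 genes a whole semen group stood apart.

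EGR2 was lowest in FR3. FR1 libraries 1 to 5 had 5.92, 3.77, 4.03, 6.06 and 4.48 CPM, and FR2 libraries had 5.21, 6.69, 8.67, 4.33 and 9.04 CPM. FR3 libraries had 2.46, 2.98, 3.40, 2.94 and 2.76 CPM, against 4.71, 6.67, 4.88, 6.73 and 9.24 CPM in CONTROL libraries. All 5 FR3 libraries lay below every other library, which held for 0.13% of all tested genes, and 0.53% had all 5 FR3 libraries below every FR1 and FR2 library. Shares with a whole semen group apart were computed downward for FR3 and FR2 alone, the groups low for EGR2 and DNAJB1. They do not tell how often any group stands apart in either direction. Without the TMM scaling they also stood apart, at 2.24 to 2.89 CPM in FR3, 4.03 to 6.80 in FR1, 4.52 to 9.73 in FR2 and 4.30 to 8.89 in CONTROL.

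In the fit, EGR2 in FR3 had a log2 fold change of -1.15 ± 0.26 against CONTROL (adjusted p = 0.0219, edgeR). Against FR2 it was -1.22 ± 0.26, with an unadjusted p of 0.000132 and an adjusted p of 0.488. Against FR1 it was -0.74 ± 0.26 (adjusted p = 0.586). The call against CONTROL was lost without FR3_1, at -1.10 (adjusted p = 0.0682), and without FR3_2, at -1.16 (adjusted p = 0.0686). It was also lost with only FR3 and CONTROL in the fit (adjusted p = 0.211), by limma-voom (adjusted p = 0.0521) and without CONTROL_2, CONTROL_3 and CONTROL_4 (adjusted p = 0.108). It was kept without CONTROL_2 and CONTROL_3, at -1.26 ± 0.30 (adjusted p = 0.0377).

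EGR2 overlaps ADO, a thiol dioxygenase gene, in the RefSeq gene table, and the 2 genes share reads in these counts. None of the 20 estimated counts of EGR2 was a whole number to within 0.0015, whereas the sum of EGR2 and ADO was whole in 19 of 20 libraries. The EGR2 values are therefore uncertain, as the counting tool split reads between the 2 genes. ADO averaged 26.1 ± 3.39 CPM in FR1, 24.0 ± 4.66 in FR2, 30.7 ± 3.43 in FR3 and 27.7 ± 8.33 in CONTROL (SD, n = 5 each). Its log2 fold change in FR3 against CONTROL was 0.15 ± 0.19 (adjusted p = 0.692, edgeR). EGR2 took 10.8% to 20.9% of the summed CPM of both genes in FR1, 14.6% to 32.4% in FR2, 7.33% to 11.7% in FR3 and 14.3% to 35.1% in CONTROL. Its paralogue EGR1, whose counts were whole in all 20 libraries, had in FR3 a log2 fold change of -0.61 ± 0.74 against FR2 (adjusted p = 0.845).

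**Figure D5:**
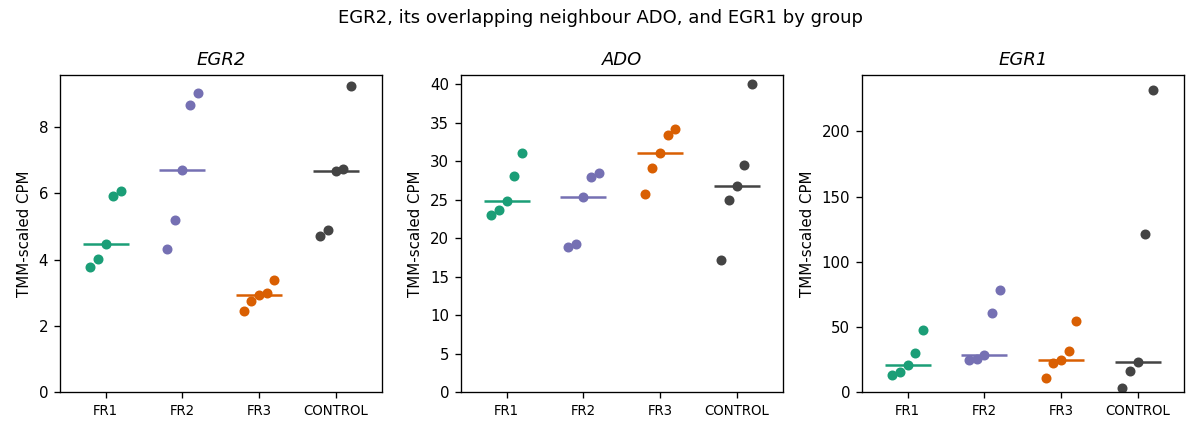
TMM-scaled CPM of EGR2, of ADO, which overlaps it, and of EGR1 in each library by group, with bars at the group medians. The 5 FR3 libraries sit between 2.46 and 3.40 CPM for EGR2, below all others, and overlap the other groups for ADO and EGR1.

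DNAJB1 was lowest in FR2, as its values above show. All 5 FR2 libraries, at 50.3 to 56.4 CPM, lay below every other library, which held for 2 of the 17745 genes tested (0.0113%). This share covers FR2 and the downward direction alone, the pattern that DNAJB1 showed. It does not tell how often any group stands apart. Without TMM scaling FR2 still lay below all other libraries but by a narrow gap, at 52.1 to 61.5 CPM. The other groups then had 68.3 to 101 CPM in FR1, 63.5 to 114 in FR3 and 68.2 to 409 in CONTROL. The SD of its log2 level over the 5 libraries was 0.07 in FR2, against 0.30 in FR1, 0.29 in FR3 and 1.02 in CONTROL.

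Against CONTROL, DNAJB1 in FR2 had a log2 fold change of -1.71 ± 0.36 (adjusted p = 0.0128, edgeR), which stayed below the threshold in each of the 20 fits that left out 1 library. Without CONTROL_3 it was -0.98. The call was lost with only FR2 and CONTROL in the fit, at -1.75 (adjusted p = 0.0994), and without CONTROL_2, CONTROL_3 and CONTROL_4, at -0.71 (adjusted p = 0.0786). Against FR1 it was -0.61 ± 0.35 (adjusted p = 1.00), and in FR3 against FR2 it was 0.81 ± 0.36 (unadjusted p = 0.0349, adjusted p = 0.667). In FR1 and FR3 against CONTROL, DNAJB1 had -1.10 ± 0.36 and -0.90 ± 0.36, with adjusted p of 0.0972 and 0.148.

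Within the 15 inseminated libraries, a small set of libraries stood higher for most immediate early genes. FR1_4, FR2_3, FR2_5 and FR3_4 were the 4 highest for FOS, JUNB, EGR1 and ATF3. For FOS the lowest of the 4 had 57.1 CPM and the next library 28.9 CPM, and for EGR1 these values were 47.5 and 31.3 CPM. For JUNB they were 36.3 and 32.1 CPM, and for ATF3 18.5 and 13.2 CPM. The same libraries were not the highest for the chaperone genes HSPA6, DNAJB1 and HSPH1, apart from FR3_4 for HSPA6. For HSPB1, however, FR1_4, FR2_5 and FR3_4 were again among the 4 highest, with FR3_5.

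The summed level of the 10 epithelial markers was 1642 CPM in FR1_4, 1834 CPM in FR2_3, 2578 CPM in FR2_5 and 1511 CPM in FR3_4, and the median of the 15 inseminated libraries was 3166 CPM. FR1_1, which was not among the 4 highest for these genes, had 1581 CPM. Smooth muscle markers summed to 24267 CPM in FR1_4, 13716 CPM in FR2_3, 16424 CPM in FR2_5 and 25185 CPM in FR3_4. The inseminated median of this sum was 13330 CPM. FR1_1, FR1_5 and FR3_5, which were not among the 4, had 27735, 15899 and 17348 CPM. The part of these cell types in the levels of the 4 genes was not tested. The same 4 libraries were the highest for FOS, EGR1 and ATF3, and correlations of these genes over the 15 libraries are not reported here.

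For other members, the genes whose levels followed them most closely were sought among all tested genes by Spearman rho over the 15 inseminated libraries, as a description with no test. These values also span the semen groups, of which FR2 was low for DNAJB1 and FR3 for EGR2. C2H19orf70 was the most alike to DNAJB1, with a rho of 0.925, and BAG3, the HSP70 co-chaperone and HSF1 target, came next with 0.921. For HSPA6 the most alike were LOC106507939 (0.868) and C12H17orf105 (0.814). For IER3 they were TCEAL1 (0.929) and PDCL3 (0.918). DNAJA1, another J-domain partner of HSP70, had 0.825 with HSPH1. ZFP36, an immediate early gene for a protein that destabilises AU-rich messenger RNAs, had 0.914 with JUNB. FR1_4, FR2_3, FR2_5 and FR3_4 were the highest for JUNB too, and its rho with ZFP36 without them was not computed.

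TSC22D3, a glucocorticoid-induced leucine zipper gene, had a rho of 0.936 with HSPB1, and GPX3, a secreted glutathione peroxidase gene, had 0.864. ZKSCAN7, a zinc finger gene, had 0.936 with EGR2.

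Other genes of the same pathways were read in the comparison of all inseminated libraries with the controls. Over all genes tested, 8.2% were called lower and 2.87% higher. Of 37 other heat shock genes tested, 1 was called lower and none higher, and their median log2 fold change was -0.09, against -0.05 over all genes. Without CONTROL_1 the count was 3 lower and 3 higher, and without CONTROL_3 it was 0. The gene called was HSP70.2, the main stress-inducible HSP70, at 522 to 1787 CPM in the inseminated libraries (median 727 CPM) and 329, 2103, 3361, 1560 and 1218 CPM in the controls. CONTROL_2 and CONTROL_3 lay above every inseminated library, and CONTROL_1 was the lowest of all 20. Its log2 fold change was -1.06 ± 0.31 (adjusted p = 0.0328, edgeR), and the call was lost without CONTROL_3, at -0.66 ± 0.32. It was also lost without CONTROL_2, CONTROL_4, FR1_2, FR2_1, FR3_1 or FR3_2, and without CONTROL_2 it was -0.97 ± 0.34. Only 6 of its 20 estimated counts were whole, so its reads were split with other genes and the value is uncertain.

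Of 39 other immediate early genes tested, 19 were called lower and none higher, against 8.2% lower and 2.87% higher over all genes. Their median log2 fold change was -0.88. SIK1, a salt-inducible kinase gene induced by cyclic AMP, had -2.996 ± 0.457 (adjusted p = 0.000408, edgeR), and MAFF, a small bZIP factor gene, had -3.06 ± 0.57 (adjusted p = 0.00205). CTGF, a matricellular YAP target, had -2.03 ± 0.39, JUND, an AP-1 subunit gene, had -1.48 ± 0.31, and DUSP5, an ERK phosphatase gene, had -1.88 ± 0.40. Leaving out CONTROL_3 reduced the 19 calls to 6. MAFF was among those lost, at -1.75 ± 0.52 (adjusted p = 0.0563).

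GADD45A, a growth arrest gene induced by DNA damage and other stresses, differed from these in the controls. It ranged from 11.6 to 25.2 CPM in the inseminated libraries, with a median of 19.6 CPM, and CONTROL_1 to CONTROL_5 had 42.4, 41.2, 117, 235 and 35.6 CPM. All 5 controls lay above all 15 inseminated libraries. The share of all genes with this full separation was not computed, and 7.68% had at least 3 controls above every inseminated library. The log2 fold change was -2.30 ± 0.30 (adjusted p = 0.000173, edgeR). Without CONTROL_2, CONTROL_3 and CONTROL_4 it was still called lower (adjusted p = 0.0372).

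Of 15 genes of the ATF4 pathway, the amino acid and integrated stress response that includes ATF3, 4 were called lower and 2 higher. Over all genes tested, 8.2% were called lower and 2.87% higher. The median log2 fold change of the 15 genes was -0.42. ASNS, asparagine synthetase, had -1.25 ± 0.25 (adjusted p = 0.00302, edgeR), at 6.51 to 15.2 CPM in the inseminated libraries and 33.5, 19.0, 44.7, 15.2 and 9.96 CPM in the controls. CEBPG, a partner of ATF4, had -0.42 ± 0.11, DDIT4, an mTORC1 inhibitor, had -0.62 ± 0.18, and PPP1R15A, a phosphatase subunit that ends the response, had -1.09 ± 0.32 (adjusted p = 0.0369). SLC7A11, the cystine transporter gene, was higher, at 1.47 ± 0.44 (adjusted p = 0.0364), with 41.6 to 289 CPM in the inseminated libraries and 32.8, 29.3, 35.1, 9.62 and 103 CPM in the controls. XBP1, the factor of the unfolded protein response, had 0.60 ± 0.19 (adjusted p = 0.0465). Of these 6 genes, ASNS alone was called in all 20 fits that left out 1 library. The calls of PPP1R15A, CEBPG, DDIT4, SLC7A11 and XBP1 were each lost without CONTROL_3, with adjusted p of 0.480, 0.115, 0.113, 0.0958 and 0.101. Including that fit, PPP1R15A was lost in 11 of the 20 fits, CEBPG in 2 (the other without CONTROL_4), DDIT4 in 2 (the other without CONTROL_1), SLC7A11 in 6 and XBP1 in 15. Without CONTROL_3 the PPP1R15A log2 fold change was -0.39.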

How the data were processed

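Messenger RNA of the uterus of 20 sows was captured with poly-T beads and sequenced in pairs on 1 platform, per the labels' protocols. The submitters' processing notes name CASAVA, STAR 2.7.9a and Salmon 1.10.1. Genome build, annotation and strand setting: not given in the sources used here. What the authors deposited is a table of expected counts (estimated counts of reads per gene, unscaled), of which 87.2% are whole. They were rounded here before testing. Of 30369 rows, 24 name no gene (0.0036% to 0.0133% of a library's counts) and were left out. Salmon shares reads between overlapping or similar genes, and antisense genes cannot be told apart.

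Groups were compared with edgeR 4.0.16 (R 4.3.3): TMM factors, filterByExpr (17745 genes), 2-sided quasi-likelihood test, 1 fit of 20 libraries with 16 residual degrees of freedom, Benjamini-Hochberg adjusted p below 0.05. Levels are TMM-scaled CPM, and SE is the log2 fold change over the square root of F. DESeq2 1.42.0, limma-voom (limma 3.58.1), other factors, no filter, exact rank-sum tests and libraries left out were alternatives. The scripts were tested on simulated data. Libraries are single sows, so p-values measure spread between sows. All samples share 1 batch label.

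The 10 genes, the pathway and marker lists (heat shock, immediate early, ATF4 pathway, cell types) and the libraries left out in pairs or threes were chosen with earlier results of these data known. All 10 genes are named, as are the called list genes with the smallest p (at most 6 a list) and some of the most alike genes; the rest are not reported here. The listed immediate early gene symbols NR4A1 and CCN1 were not matched to a gene row, and 39 of the 40 genes matched were tested. Ranges of EGR2 and DNAJB1 without TMM scaling were added after the values were seen.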

Additional observations from a re-analysis of the deposited data

Results flagged for a closer look

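Each of the 10 genes was examined in each of the 4 groups for a library whose gap to its nearest neighbour exceeded 0.71 of the group's range. That happened in 7 of 40 groups. The limit gives about 1 in 20 only for independent values with a normal spread. These were unlogged CPM of genes measured in the same libraries, so the count cannot be set against that rate. Of the 7, 3 were CONTROL_3. It had 232 CPM of HSPA6, and the other controls had 1.83 to 47.7 CPM. It had 464 CPM of DNAJB1, beside 72.7 to 143 CPM in the other controls, and 562 CPM of JUNB, beside 25.4 to 159 CPM.

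FR3_4 stood apart in FR3 for ATF3, at 32.7 CPM beside 6.55 to 12.9 CPM in the rest, and for IER3, at 11.3 CPM beside 1.98 to 4.42 CPM. FR1_4 stood apart in FR1 for FOS, at 61.8 CPM beside 13.9 to 27.1 CPM. FR2_1 was low for DNAJB1 within the tight FR2 group, at 50.3 CPM beside 54.8 to 56.4 CPM.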

How the results depend on the processing

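No paired analysis was possible because the labels number the sows from 1 to 20 with no number shared between groups, and the columns carry only a group and a number. Of the 10 genes, 5 were called over all inseminated libraries against control. That count was 2 by limma-voom, 2 without CONTROL_2 and CONTROL_3, 0 without CONTROL_4 as well, 0 by the exact rank-sum test and 3 to 7 with 1 library left out. In FR1 (3 called) it was 5 by DESeq2, 0 by limma-voom, 0 without the 2 controls, 0 without the 3, 0 with only the 2 groups compared and 0 to 5 with 1 library out. In FR2 (4 called) it was 1 by limma-voom, 2 without the 2 controls, 0 without the 3, 0 with only the 2 groups and 2 to 4. In FR3 (4 called) it was 0 by limma-voom, 1 without the 2 controls, 0 without the 3, 0 with only the 2 groups and 0 to 5. Any difference among the 4 groups (5 called) gave 0 by limma-voom, 1 and 0 without those controls and 3 to 6, and FR3 against FR2 gave 1 by DESeq2 against 0.

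The 1 other heat shock gene called became 2 with relative log expression factors, 5 by DESeq2, 0 by limma-voom and 0 to 6 with 1 library out. The 19 other immediate early genes became 6 by limma-voom, 1 without the 2 or the 3 controls and 6 to 21. The 6 ATF4 pathway genes became 1 without the 2 controls, 0 without the 3 and 1 to 8.

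Over all genes, 1965 calls in all inseminated against control became 1308 by limma-voom, where higher calls made up 46.7% and in edgeR 26% of calls, 1171 and 523 without the 2 and the 3 controls, 334 by rank-sum and 988 to 2730 with 1 library out. The 461 calls in FR1 became 1450 by DESeq2, 185 by limma-voom, 174 and 208 without those controls, 0 with only the 2 groups and 99 to 1372. The 985 in FR2 became 2125 by DESeq2, 420 without the 3 controls, 1 with only the 2 groups and 309 to 1881. The 758 in FR3 became 1876 by DESeq2, 295 by limma-voom, 505 and 7 without those controls, 0 with only the 2 groups and 58 to 1869. FR3 against FR1 gave 12 by DESeq2 against 0. FR3 against FR2 gave 21 by DESeq2, 0 without the 2 or the 3 controls and 0 to 1, against 1.

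Among called fold changes, signs turned only with controls left out, to values that were not called. Without CONTROL_2, CONTROL_3 and CONTROL_4, HSPA6 was 0.13 over all inseminated, 0.50 in FR1 and 0.14 in FR3, IER3 was 0.45, 0.16, 0.74 and 0.45 over all inseminated, FR1, FR2 and FR3, JUNB in FR2 was 0.20 and ATF3 1.57. HSP70.2 was then 0.10, PPP1R15A 0.12 and MAFF 1.17, and MAFF was 0.20 without CONTROL_2 and CONTROL_3. Over all alternatives the highest adjusted p against control was 0.919 for HSPA6, 0.528 for DNAJB1, 0.988 for JUNB, 0.948 for ATF3 and 0.812 for IER3 over all inseminated libraries, 0.0994 for DNAJB1 in FR2 and 0.211 for EGR2 in FR3. Of 2218 values of single genes under an alternative, 1972 kept direction and call. With 5 libraries a group, of which 2 are controls in the strictest setting, fewer samples enter those tests. The low counts of HSPA6 (27 in FR2_4) and IER3 (43 in FR1_3) limit folds among the inseminated libraries.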
